A study of Hordeum vulgare with 18 samples.

Results

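The features described here are the entries of the count table whose identifiers begin with EPlHVUG and which reached 10 normalized counts or more in 3 or more of the 18 libraries. They number 172, of 1855 features with that prefix and of 26066 features in the whole table. The other 24211 features carry identifiers beginning with MLOC. A normalized count is a read count that the authors divided by a size factor of its library, so it can be compared between libraries but not, without feature lengths, between features as a transcript level. The members were chosen by these same values, so their presence in the libraries is a description.

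The libraries come from a study of barley, Hordeum vulgare cultivar Golden Promise, in which the gene HvCKX1 was silenced. The product of HvCKX1 is a cytokinin oxidase/dehydrogenase, which breaks down cytokinins, the plant hormones that promote cell division and act on spike and grain growth. RNA of whole spikes was sequenced from an azygous control and from 2 independent silenced lines. KD-CKX1 5.8 is written here as line 5.8, and KD-CKX1 17_10 as line 17_10. Each was sampled at stages 49 and 59 of the BBCH scale, before and at the end of heading, the emergence of the spike from the leaf sheath. Each of the 6 combinations had 3 libraries, described as biological replicates. All plants stood in the same kind of field plot, at 200 plants per square metre. All received a mineral fertilizer with 27% nitrogen at 30 kg per ha in 2 applications, the herbicide Mustang Forte and the fungicides Acanto and Capalo. The sources used here do not give the promoter that drives the silencing construct or the number of plants behind a library.

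Gene annotations hold several kinds of entries: gene models that encode proteins, and features for RNA that is not translated, such as ribosomal, transfer, small nuclear and organelle RNA. MLOC is the prefix of the gene models of the barley sequencing consortium, and EPlHVUG has the form of an Ensembl Plants identifier. Libraries of this study were made with a stranded mRNA kit, which selects RNA by its poly(A) tail, and RNA without such a tail enters such libraries only in part. The sources used here do not say what kind of RNA each EPlHVUG feature stands for: 0 of the 172 members matched the reference table of 58438 barley genes, and the file gives them no names. Members are therefore given by identifier alone. The silenced gene could not be located by name either, so the labels were not checked through it.

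The libraries held 24459652 to 106034579 reads, and between 120 and 160 members reached a normalized count of 10 in a library. Line 17_10 stage 49 replicate 2 stood apart from all other libraries in the members, as described next, with a depth of 74202137 reads that lay within the range of the others. Shares, numbers of members called by stage and median changes against the control are given with and without it where they rest on it. Spreads between replicates are given with it only. Line 5.8 stage 59 replicate 1 stood below its replicates and is treated the same way. The members' share was 0.207% in it and 1.71 and 1.75% in its replicates, against 0.359 to 0.450% in the control at that stage. Its replicates thus also lay outside the control range, and which library of the group is the unusual one was not tested.

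The identifier numbers fell into 2 separate ranges, a feature of the list that the selection rule did not use. Numbers 1 to 1779 covered 1744 features, of which 100 were members (5.73%), and 1265 (72.5%) had no read in any library. Numbers 10001 to 10112 covered 111 features, of which 72 were members (64.9%) and 12 (10.8%) had no read. Among the MLOC features, 20702 of 24211 (85.5%) passed the same threshold and 657 (2.71%) had no read. The EPlHVUG features numbered up to 1779 thus mostly had no counted read in these libraries, and those numbered from 10001 mostly passed the threshold. Having no counted read does not show that a feature was not expressed. The members of the ranges are called low-numbered and high-numbered below; the division was noticed in the data, so it is used for description and was not tested.

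Most members had low counts. The median of the mean normalized count over 18 libraries was 18.9 for the low-numbered members, with quartiles of 10.4 and 44.8. For the high-numbered members it was 120, with quartiles of 44.8 and 366, against 809 over all 20874 features that passed the threshold. No low-numbered member had a mean of 1000 or more, and 9 high-numbered members did. A count of at least 10 in all 18 libraries was found for 35 of 100 low-numbered and 56 of 72 high-numbered members. No member passed through 1 group alone, while 2 low-numbered members passed through stage 49 libraries alone and 6 low-numbered and 1 high-numbered member through stage 59 libraries alone. No control library reached a count of 10 for 6 low-numbered and 5 high-numbered members, some of which are among those just counted. The members just inside the threshold were EPlHVUG00000001610 and EPlHVUG00000000768, whose third-highest value was 10.1 in each. Just outside it were EPlHVUG00000001340 and EPlHVUG00000001437, with third-highest values of 9.92 and 9.83.

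The 172 members took a small share of the reads in most spikes and a large one in a few. At stage 49 the share of normalized counts in the control was 0.352, 0.796 and 0.369% in replicates 1 to 3, a mean of 0.506% ± 0.251 (SD, n = 3). In line 5.8 it was 0.558, 0.402 and 0.545% (0.501% ± 0.0867, SD, n = 3). In line 17_10 it was 0.490, 7.46 and 0.365% (2.77% ± 4.06, SD, n = 3). Replicate 2 of line 17_10 alone set that mean apart: without it the mean was 0.428%. The control mean without its own highest library, replicate 2, was 0.361%. At stage 59 the control took 0.418, 0.359 and 0.450% (0.409% ± 0.0463, SD, n = 3). Line 5.8 took 0.207, 1.71 and 1.75% (1.22% ± 0.881, SD, n = 3). Line 17_10 took 0.539, 0.534 and 2.20% (1.09% ± 0.958, SD, n = 3), and without replicate 3 its mean was 0.537%. At stage 59 all 3 libraries of line 17_10 lay above all 3 control libraries, and line 5.8 had the lowest library as well as 2 of the 3 highest. Without line 5.8 stage 59 replicate 1 the mean of that group was 1.73%, and without replicate 2 or replicate 3 it was 0.98% or 0.959%. In whole spikes, more RNA per cell and more of the cells that hold the RNA cannot be told apart in these shares.

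**Figure D1:**
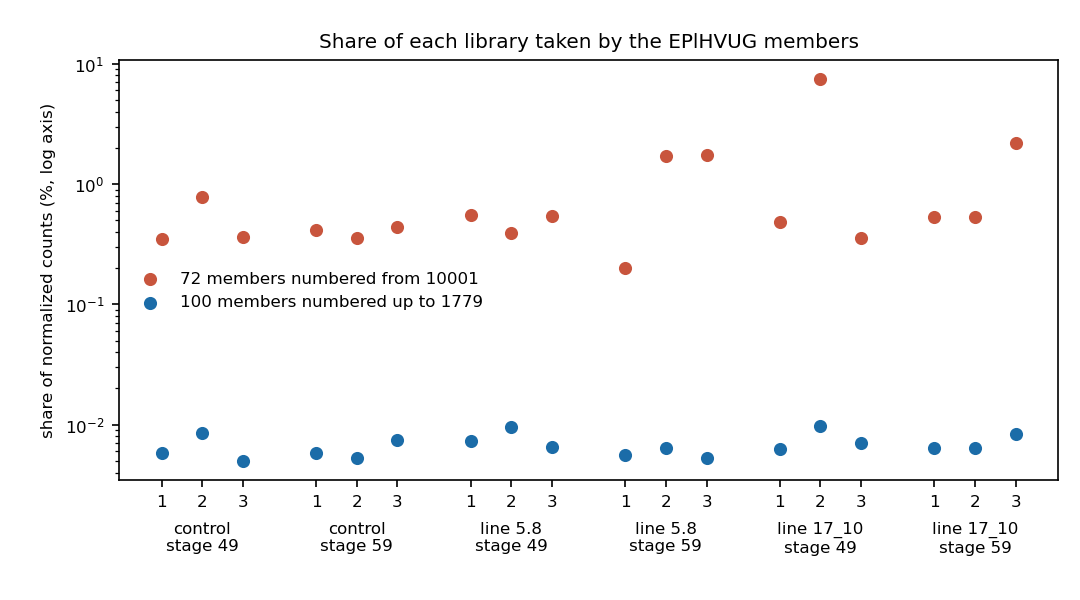
Share of the normalized counts of each library (percent, log axis) taken by the 72 high-numbered members (red) and the 100 low-numbered members (blue), by group and replicate number. The high-numbered members ran from 0.201% to 7.45% and the low-numbered members from 0.00500% to 0.00970%.

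Nearly all of the share belonged to the high-numbered members. They took 0.201 to 7.45% of a library, a range over which the low-numbered members stayed between 0.00500 and 0.00970%. The low-numbered share moved much less. At stage 59 in line 5.8 it was 0.00558, 0.00640 and 0.00530%, while the high-numbered share went from 0.201 to 1.75%. In line 17_10 stage 49 replicate 2 the low-numbered share was 0.00970%, the highest of the 18 libraries, against 0.00631 and 0.00704% in its replicates. In control stage 49 replicate 2, too, both shares were the highest of the group, at 0.787% and 0.00851%.

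A pair of features made up most of the members' counts in every library. EPlHVUG00000010090 and EPlHVUG00000010111 together held 73.9% of the members' counts in line 5.8 stage 59 replicate 1 and 96.8% in line 17_10 stage 49 replicate 2, the extremes of the 18 libraries. The other 170 members together took 0.0461 to 0.237% of a library. Counts of EPlHVUG00000010090 in the control were 120492, 298022 and 121084 at stage 49 and 131976, 114875 and 135452 at stage 59. In line 5.8 they were 215286, 136613 and 199281 at stage 49, then 59805, 585132 and 610137 at stage 59. In line 17_10 they were 171304, 3124847 and 117731 at stage 49, then 175332, 159465 and 754548 at stage 59. The feature ranked between 1 and 66 among all features of a library, and was the most abundant of all in 3 libraries: line 5.8 stage 59 replicate 2, line 17_10 stage 49 replicate 2 and line 17_10 stage 59 replicate 3. Genotypes overlapped at each stage, except that all 3 line 17_10 libraries lay above the control at stage 59.

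EPlHVUG00000010111 moved with EPlHVUG00000010090. Its counts in line 17_10 stage 49 were 85061, 1400185 and 57208, and in line 5.8 stage 59 they were 20900, 331642 and 343082. The ratio of EPlHVUG00000010090 to EPlHVUG00000010111 stayed between 1.76 and 2.86 in the 18 libraries, while EPlHVUG00000010090 itself spanned 52.3-fold. The ratio was 2.23 in line 17_10 stage 49 replicate 2, against 2.01 and 2.06 in its replicates. The sources used here do not say how reads that align to several places were counted, so whether the pair shares reads was not tested.

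The other members of highest mean were EPlHVUG00000010043 (11553), EPlHVUG00000010031 (7740), EPlHVUG00000010108 (6603), EPlHVUG00000010074 (2928), EPlHVUG00000010021 (2002), EPlHVUG00000010017 (1365), EPlHVUG00000010069 (1007) and EPlHVUG00000010012 (960.7). They fell into those that spanned a wide range of libraries and those that did not. EPlHVUG00000010108 spanned 41.2-fold and EPlHVUG00000010043 38.3-fold, while EPlHVUG00000010031 spanned 4.23-fold and EPlHVUG00000010069 2.72-fold. EPlHVUG00000010017 had 579.5, 4609 and 558 in line 17_10 at stage 49, and EPlHVUG00000010021 had 1149, 4953 and 1091 there. EPlHVUG00000010074 had 2087, 12452 and 1877. In each of these 3 members replicate 2 lay far above a pair of close replicates.

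**Figure D2:**
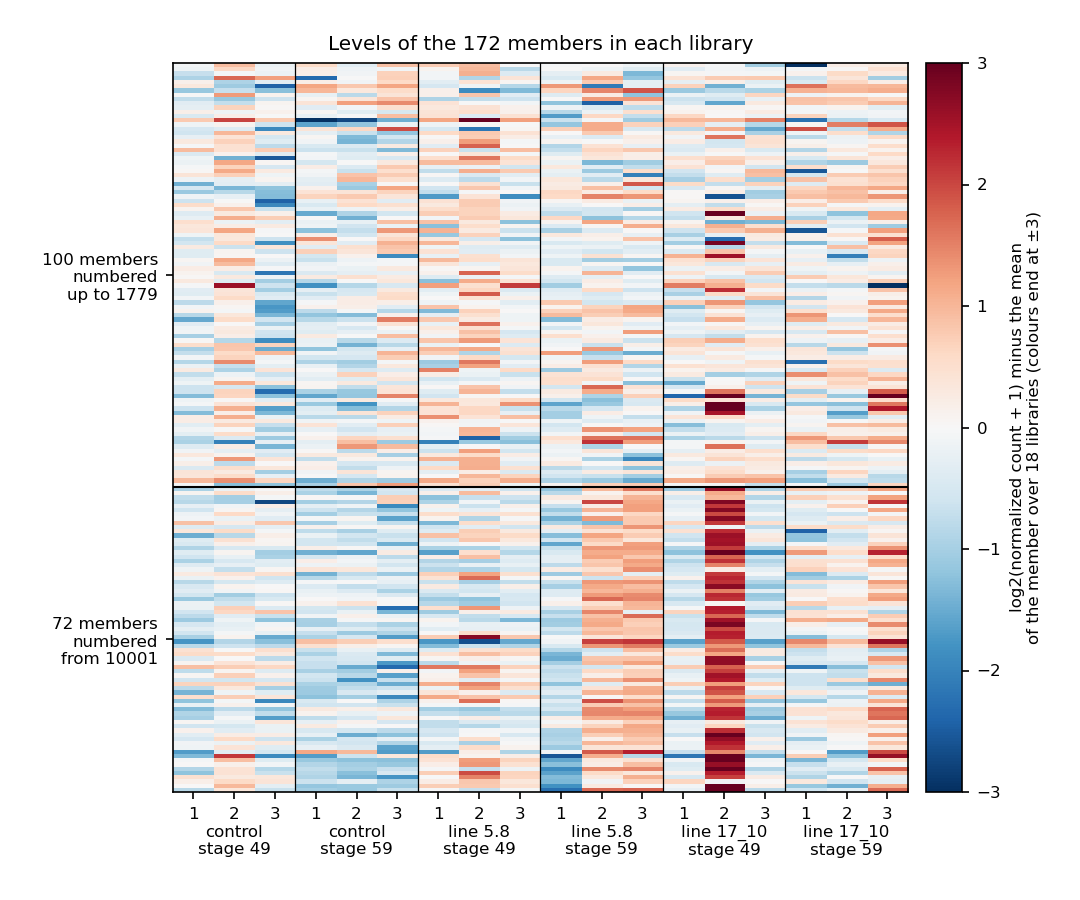
Each row is a member, ordered by identifier number, and each column a library; colour gives log2(normalized count + 1) minus the member's mean over 18 libraries, with colours ending at 3 in either direction. High-numbered members are high together in line 17_10 stage 49 replicate 2, where 59 of 72 had their highest value of all libraries.

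The rise in line 17_10 stage 49 replicate 2 ran through almost all high-numbered members. Each library was compared with the mean of the other 2 libraries of its group, on the scale of log2(normalized count + 1). In this library the median difference of the 72 high-numbered members was 2.63, with quartiles of 2.13 and 3.09, and 71 of the 72 were the highest of their group. At least 2-fold above the replicates lay 63 of them, at least 4-fold 56 and at least 8-fold 22. The low-numbered members had a median difference of 0.18 there and the MLOC features 0.00, with 220 of 20702 (1.06%) at least 2-fold above. The shift was thus broad within the high-numbered members and not seen in most other features of the same library.

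Members differed in how far they moved. EPlHVUG00000010077 moved most, at 7.70 on the log2 scale: its counts in line 17_10 stage 49 were 26.0, 7405 and 45.9. EPlHVUG00000010090 stood 4.46 above and EPlHVUG00000010111 4.33 above the replicates. The high-numbered member that was not highest was EPlHVUG00000010099, with 349, 207 and 225, a difference of -0.43. EPlHVUG00000010031, EPlHVUG00000010069 and EPlHVUG00000010012, with differences of 0.48, 0.48 and 0.51, moved little although they are among the 10 members of highest count. Of the low-numbered members, 5 were at least 8-fold above: EPlHVUG00000001435, EPlHVUG00000001463, EPlHVUG00000001450, EPlHVUG00000000607 and EPlHVUG00000000745. EPlHVUG00000001463, for example, had 8.68, 403 and 8.61. Apart from those named by rank, these members were chosen after their values were seen. The 28 MLOC features at least 8-fold above in this library, and the 27 members at least 8-fold above, were also the highest of their group in line 17_10 stage 59 replicate 3.

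**Figure D3:**
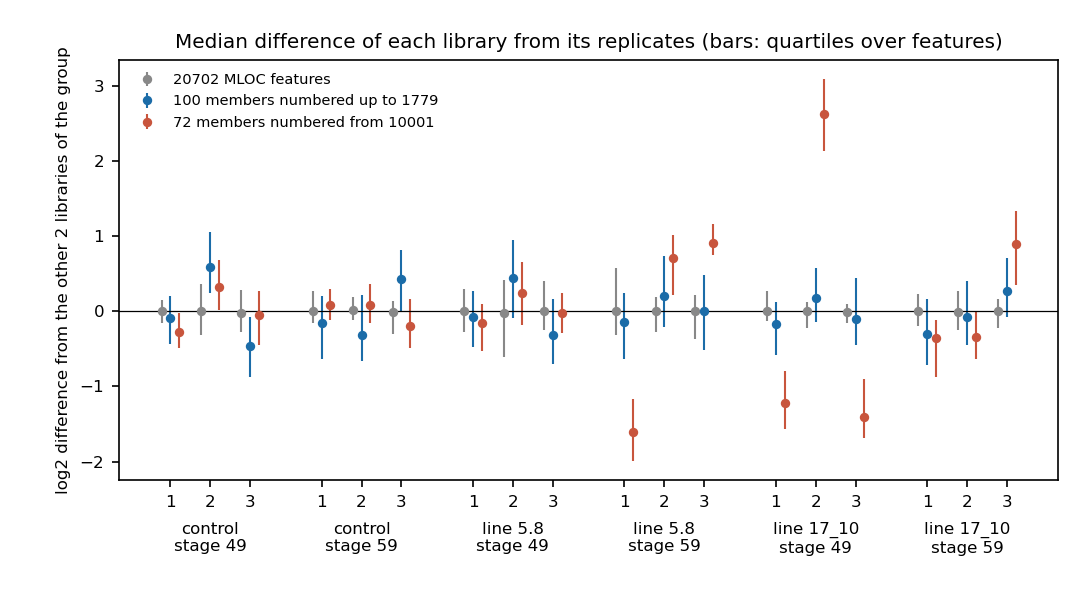
Difference of each library from the mean of the other 2 libraries of its group, in log2(normalized count + 1); points are medians over features and bars run from the lower to the upper quartile, for MLOC features (grey), low-numbered members (blue) and high-numbered members (red). The red median reached 2.63 in line 17_10 stage 49 replicate 2 and -1.60 in line 5.8 stage 59 replicate 1.

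Other libraries, a control library among them, showed smaller shifts of the high-numbered members, and some showed larger shifts of the low-numbered members. In control stage 49 replicate 2 the high-numbered members stood 0.33 above their replicates in the median, with 42 of 72 (58.3%) highest of the group. The low-numbered members stood 0.59 above there, with 71 of 100 highest, and 42.4% of MLOC features were highest. Low-numbered members also stood 0.44 above in line 5.8 stage 49 replicate 2, with 64 of 100 highest. In control stage 59 replicate 3 they stood 0.43 above, with 62 of 100 highest. In those libraries the high-numbered members were at 0.25 and -0.19, with 42 and 34% of MLOC features highest. In line 17_10 stage 59 replicate 3 the high-numbered members stood 0.90 above their replicates in the median, and 57 of 72 were highest of the group. In line 5.8 stage 59 replicate 1 they stood at -1.60, with 70 of 72 lowest and 60 at least 2-fold below. The low-numbered members were at 0.27 and -0.14 in these libraries and the MLOC features at 0.00 in each. MLOC features also spread widely in line 5.8 stage 59 replicate 1, with quartiles of -0.31 and 0.58 and 14.4% at least 2-fold above, and the part of that in the members' values was not tested. Over the 72 high-numbered members, the differences in line 17_10 stage 49 replicate 2 correlated with those in line 17_10 stage 59 replicate 3 (Pearson r = 0.65, Spearman rho = 0.64). They correlated inversely with those in line 5.8 stage 59 replicate 1 (r = -0.62, rho = -0.65). They also correlated with those in control stage 49 replicate 2 (r = 0.63, rho = 0.43). Over the 100 low-numbered members the correlation between both line 17_10 libraries was r = 0.55, with rho = 0.30. For line 17_10 stage 49 replicate 2 with line 5.8 stage 59 replicate 1 it was r = -0.08 (rho = -0.03). With control stage 49 replicate 2 it was r = 0.30 (rho = 0.20). These are correlations across features that share their libraries and their scaling, and features are not independent replicates. High-numbered members far above in line 17_10 stage 49 replicate 2 tended to stand high or low in the others too.

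High-numbered members with a mean of 30 counts or more varied more between replicates than all features of the same level did. Those of lower mean did so little or not at all. The spreads given here include both libraries that stood apart. The residual SD, the spread of a feature's log2 values around its 6 group means, had a median of 0.85 in the high-numbered members, 0.60 in the low-numbered members and 0.32 over all features tested. Spread falls with level, so levels were matched. At a mean of 100 to below 300 counts, the median was 0.75 in 18 high-numbered members, 0.40 in 9 low-numbered members and 0.49 in all 2731 features. At a mean of 1000 or more it was 0.89 in 9 high-numbered members and 0.20 in 9551 features. At a mean of 10 to below 30 the 8 high-numbered members were at 0.84 and all features at 0.87, and below 10 the 5 high-numbered members were at 1.08 and all features at 0.97. Low-numbered members lay at or below the median of all features in each of the 4 bins of level they occupied, down to 0.73 against 0.97 at a mean below 10.

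The spread of the high-numbered members was widest in 3 of the 6 groups. The median SD within a group was 1.52 in line 17_10 at stage 49, where the MLOC features were at 0.15, their lowest of all groups. It was 0.99 in line 5.8 at stage 59 and 0.56 in line 17_10 at stage 59. In the control at both stages and in line 5.8 at stage 49 it was 0.32, 0.31 and 0.35, against 0.25, 0.18 and 0.35 for MLOC features. These values are not matched for level, and the MLOC features had a median mean count of 825. When each library's median of the high-numbered members was subtracted, their median residual SD was 0.47, a value that the subtraction lowers by construction. The residual SD fell in most of them but rose in some, so the shift was not shared by the whole set. EPlHVUG00000010031 went from 0.29 to 0.67 and EPlHVUG00000010069 from 0.28 to 0.65.

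**Figure D4:**
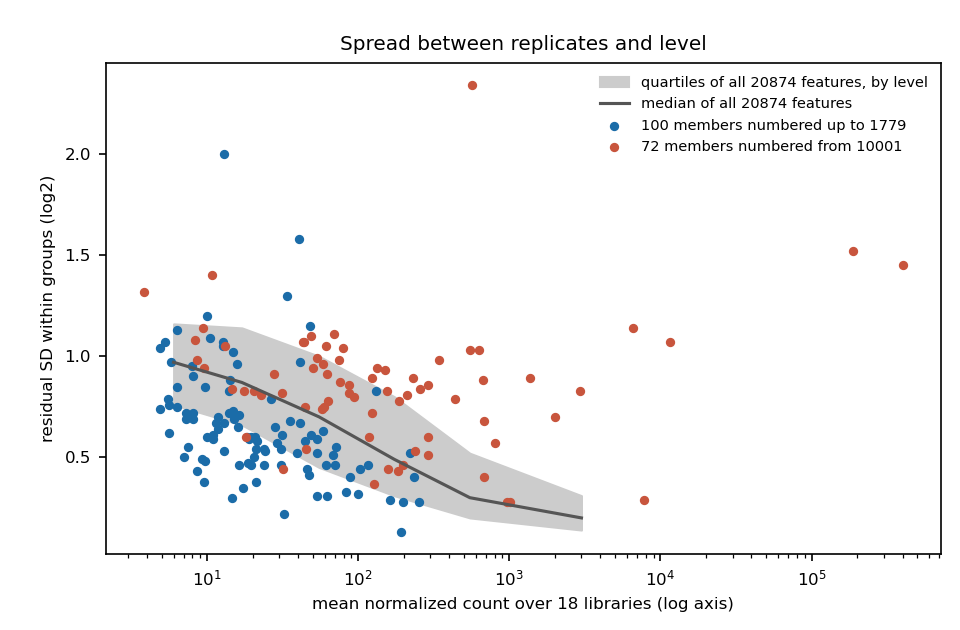
Residual SD within groups (log2 scale) against the mean normalized count over 18 libraries (log axis) for low-numbered members (blue) and high-numbered members (red), with the median (line) and quartiles (band) of all 20874 features drawn at 6 levels. The 9 high-numbered members with a mean of 1000 or more had a median of 0.89, against 0.20 for all features at that level.

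Among members with a mean of at least 50, the largest residual SDs belonged to EPlHVUG00000010077 (2.34), EPlHVUG00000010111 (1.52), EPlHVUG00000010090 (1.45), EPlHVUG00000010108 (1.14) and EPlHVUG00000010072 (1.11). All 5 are high-numbered, as are 52 of the 73 members with such a mean. The smallest was that of EPlHVUG00000001566 (0.13), whose counts stayed between 145 and 233 in the 18 libraries. EPlHVUG00000010012, EPlHVUG00000001095, EPlHVUG00000010069 and EPlHVUG00000000348 followed at 0.28. EPlHVUG00000001566 was the steadiest member over replicates, stages and genotypes, at a 1.61-fold range.

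The stage comparison asks which features differ between spikes at stage 59 and at stage 49 in each genotype. Few members did so beside the rest of the transcriptome. Changes were called by limma on log2(normalized count + 1), at an adjusted p below 0.05 over all 20874 features. In the control 15 of 172 members were called, 5 higher and 10 lower at stage 59, while 45% of all features were called, 22.1% higher and 22.9% lower. In line 5.8 it was 29 members, 15 higher and 14 lower, against 50.5% of all features, 24.2% higher and 26.3% lower. In line 17_10 it was 22 members, 11 higher and 11 lower, against 45.3%, 21.5% higher and 23.8% lower. Of all members, 42 (24.4%) were called in at least 1 genotype, against 63.5% of all features, and the part of the members' wider spread and lower level in this was not tested.

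Directions depended on single libraries and on scaling. In line 17_10, 3 high-numbered members were called higher and 6 lower at stage 59. Without line 17_10 stage 49 replicate 2 it was 17 higher and 2 lower, with 38.5% of all features called, and 12 of the 22 members called with all libraries kept their call. The median change of the high-numbered members in line 17_10 went from -0.33 to 0.57 on the log2 scale when that library was left out. In line 5.8, 9 high-numbered members were called higher and 4 lower, and without line 5.8 stage 59 replicate 1 it was 19 and 1, with 50.9% of all features called. The control, which lost neither library, had 1 high-numbered member called higher and 6 lower, with a median change of -0.38. Scaling to the total of all features moved the median change of all features from 0.015 to 0.145 in the control. In line 17_10 it moved from -0.007 to 0.112. The control then had 8 members called higher and 9 lower, with 46.5% of all features called. Line 17_10 had 16 and 9, with 47.4% of all features called. With MLOC features as the total, the control had 8 higher and 10 lower, with 46.7% of all features called.

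There were 9 members called the same way in all 3 genotypes (5.23% of members, against 32% of all features), and 0 called in opposite directions. The 9 are named here because the count was small, a choice made after their values were seen. The 3 that were higher at stage 59 were EPlHVUG00000010043, EPlHVUG00000000078 and EPlHVUG00000000085. The 6 that were lower were EPlHVUG00000001764, EPlHVUG00000000220, EPlHVUG00000010046, EPlHVUG00000010052, EPlHVUG00000010057 and EPlHVUG00000010061. The 3 genotypes are separate sets of libraries, so these are separate comparisons within 1 fit.

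EPlHVUG00000001764, a low-numbered member, fell most evenly. Its counts at stage 49 were 244, 325 and 196 in the control, 274, 201 and 267 in line 5.8, and 276, 307 and 293 in line 17_10. At stage 59 they were 44.6, 66.3 and 58.8 in the control, 64.9, 57.1 and 42.8 in line 5.8, and 51.4, 81.5 and 73.3 in line 17_10. Every stage 59 library lay below every stage 49 library. The log2 fold change was -2.14, -2.16 and -2.09 in the control and the lines 5.8 and 17_10, with an SE of 0.26 and adjusted p of 1.48e-05, 1.2e-05 and 1.89e-05.

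EPlHVUG00000000220 fell as well, from low counts: 25.4, 61.1 and 25.4 at stage 49 in the control and 0.769, 1.33 and 4.53 at stage 59. Its log2 fold change was -3.63 in the control (SE 0.64, adjusted p = 0.000343), -2.45 in line 5.8 (adjusted p = 0.0053) and -2.35 in line 17_10 (adjusted p = 0.00785). The 2 low-numbered members that rose were also low. EPlHVUG00000000078 went from 6.61, 9.40 and 6.05 to 32.3, 19.9 and 23.5 in the control, a log2 fold change of 1.65 (SE 0.47, adjusted p = 0.0107). EPlHVUG00000000085 went from 4.41, 3.13 and 4.84 to 8.46, 10.6 and 15.4 there, a change of 1.26 (SE 0.41, adjusted p = 0.0196).

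The 4 high-numbered members that fell kept separate stages in the control. EPlHVUG00000010057 had 236, 241 and 203 at stage 49 and 76.9, 79.6 and 52.5 at stage 59 in the control. In line 5.8 it had 319, 411 and 250, then 63.5, 116 and 181, and in line 17_10 it had 249, 358 and 236, then 96.1, 67.8 and 53.2. Stages did not overlap in any genotype, and the high library of line 17_10 at stage 49 was replicate 2. Its log2 fold change was -1.71, -1.53 and -1.96 in the control, line 5.8 and line 17_10 (SE 0.35; adjusted p 0.00106, 0.00208 and 0.000369). EPlHVUG00000010061 fell by 1.93, 1.04 and 1.25 on the same scale, EPlHVUG00000010046 by 1.38, 1.13 and 1.13, and EPlHVUG00000010052 by 2.26, 1.57 and 2.43.

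EPlHVUG00000010043 had the largest rise in each genotype among called members with a mean of at least 50 in the higher group. In the control it had 1940, 3573 and 2748 at stage 49 and 12375, 10952 and 9381 at stage 59. In line 5.8 it had 1964, 1059 and 2296, then 6109, 27421 and 28998. In line 17_10 it had 2160, 23627 and 2134, then 17876, 12791 and 40544. Stages were separate in the control and in line 5.8, while in line 17_10 the stage 49 library of replicate 2 lay among those of stage 59. The log2 fold change was 2.02 in the control (SE 0.79, adjusted p = 0.0499), 3.33 in line 5.8 (adjusted p = 0.00279) and 2.14 in line 17_10 (adjusted p = 0.039). The call in the control was lost under 16 of the alternatives tried and that in line 17_10 under 8, in edgeR's test among them, with the direction kept in each.

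**Figure D5:**
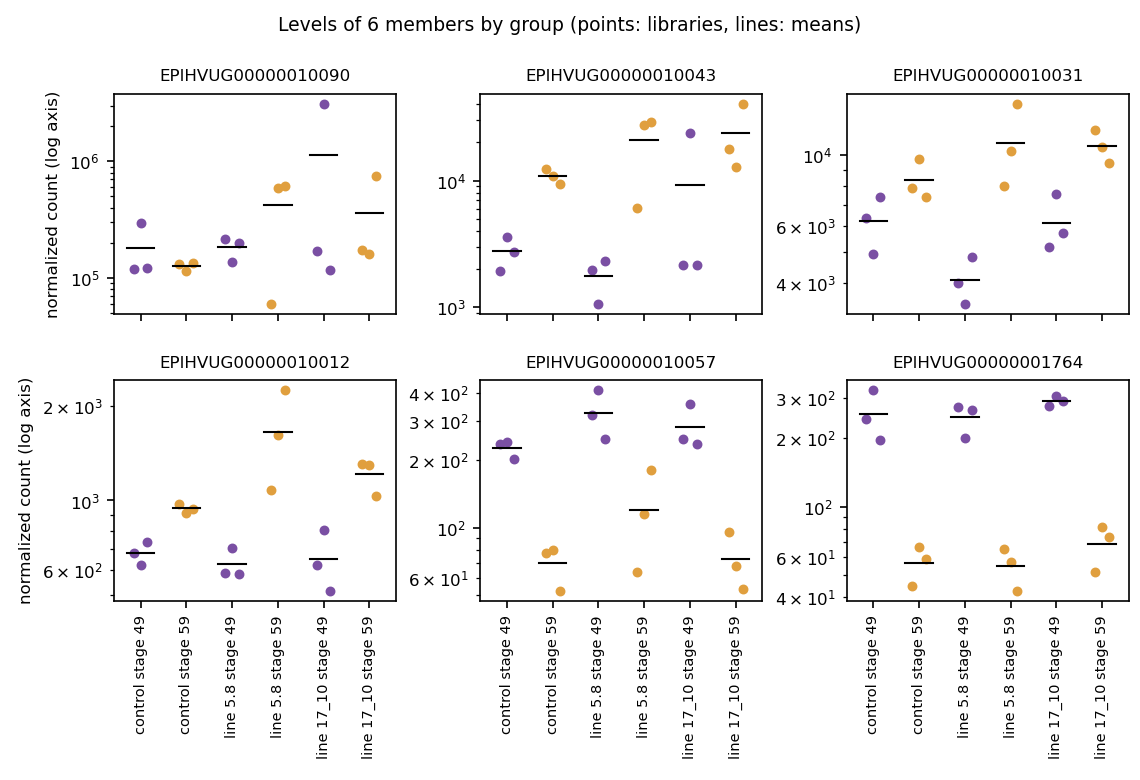
Normalized counts (log axes, different for each panel) of 6 members by group, with libraries as points (purple for stage 49, orange for stage 59) and group means as lines. EPlHVUG00000001764 and EPlHVUG00000010057 are lower at stage 59 in each genotype, while EPlHVUG00000010090 is led by 1 library, at 3124847 in line 17_10 stage 49 replicate 2.

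Other large changes were called in 1 or 2 genotypes. EPlHVUG00000010012 had 682, 626 and 738 at stage 49 and 977, 914 and 941 at stage 59 in the control, a change of 0.47 that was not called (adjusted p = 0.0918). It was called in line 5.8 at 1.33 (SE 0.22, adjusted p = 0.000148) and in line 17_10 at 0.91 (adjusted p = 0.0032). EPlHVUG00000010031 behaved alike: 0.43 in the control (adjusted p = 0.12), 1.39 in line 5.8 (adjusted p = 0.000105) and 0.81 in line 17_10 (adjusted p = 0.00729). Stages did not overlap in the control for either member, and the differences between genotypes were not called in the interaction test described below. That of EPlHVUG00000010012 in line 5.8 was called without line 5.8 stage 59 replicate 1 (log2 difference 1.13, adjusted p = 0.0481). In line 5.8, EPlHVUG00000010030 and EPlHVUG00000010044 rose by 1.97 and 1.75 on the log2 scale (adjusted p = 0.0237 and 0.0224) and EPlHVUG00000000476 fell by 1.63 (adjusted p = 0.00733). In line 17_10, EPlHVUG00000001309 rose by 0.97 (adjusted p = 0.0167) and EPlHVUG00000010045 fell by 1.38 (adjusted p = 0.0223). The call of EPlHVUG00000010045 was lost without line 17_10 stage 49 replicate 2, in which it had 825 against 297 and 308, and without replicate 1 or 3 of that line at stage 59. EPlHVUG00000010096 fell in the control by 1.72 (adjusted p = 0.0373), a call lost when any of 5 of the 6 control libraries was left out.

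The most abundant members were not called between stages in any genotype. For EPlHVUG00000010090 the control changed by a log2 value of -0.36, line 5.8 by 0.62 and line 17_10 by -0.53, each with an SE of 1.08 (adjusted p = 0.811, 0.661 and 0.722). For EPlHVUG00000010111 it was -0.55, 0.68 and -0.64, with an SE of 1.12. Such standard errors cannot show a change of 2-fold, so these values do not show that the levels were equal. EPlHVUG00000010108 had 4133, 8044 and 3306 at stage 49 and 1812, 1893 and 1947 at stage 59 in the control, with no overlap. The fit, in which all groups share 1 estimate of the spread, gave it an adjusted p of 0.209. EPlHVUG00000010074, EPlHVUG00000010021 and EPlHVUG00000010017 were not called either, with changes between -0.66 and 1.47.

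Comparisons of each silenced line with the control ask which features differ when HvCKX1 is silenced. No member was called by limma in any of the 4. Of all features, 0.431% were called at stage 49 and 0.321% at stage 59 in line 5.8, against 0.211% and 0.206% in line 17_10. At an unadjusted p below 0.05, line 5.8 at stage 49 had 10 members (5.81%), against 14.9% of all features, and at stage 59 it had 19 members (11%), against 16.4%. Line 17_10 had 5 members (2.91%), against 1.6% of all features, at stage 49 and 7 (4.07%), against 6.39%, at stage 59. With edgeR no member was called in any of these, with 0.359 and 0.158% of all features called at stage 49 in line 5.8 and line 17_10, and 0.287 and 0.168% at stage 59. DESeq2 called 2 members in line 5.8 at each stage, with 1.67% of all features called at stage 49 and 2.4% at stage 59, and 0 members in line 17_10, with 0.364 and 0.901%. At the rates of the adjusted limma calls, a count of 0 in 172 members is close to the background.

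The smallest adjusted p of a member was that of EPlHVUG00000000405, a low-numbered member, in line 5.8 at stage 49. It had 41.9, 16.5 and 7.26 in the control and 66.0, 142 and 68.8 in line 5.8, with no overlap. The log2 fold change was 2.25 (SE 0.48, adjusted p = 0.064). DESeq2 called it (log2 fold change 2.02, adjusted p = 0.00478) together with EPlHVUG00000001159. In line 17_10 at stage 49 EPlHVUG00000000405 had 65.6, 73.5 and 62.2, also above all 3 controls, and it was called there only when control replicate 1 was left out (adjusted p = 0.0235). The member of smallest p in that comparison was EPlHVUG00000001159, with 61.7, 32.9 and 15.7 in the control and 100.3, 130 and 87.1 in line 17_10. Its log2 fold change was 1.68 (SE 0.42, adjusted p = 0.357). Both lines were compared with the same control libraries, in which replicate 3 was the lowest for both members.

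At stage 59 the smallest p in line 5.8 was that of EPlHVUG00000010061, with 56.2, 63.7 and 34.4 in the control and 71.6, 135 and 194 in the line. The groups did not overlap, and the log2 fold change was 1.29 (SE 0.36, adjusted p = 0.154). Without line 5.8 stage 59 replicate 1, 9 members were called higher in line 5.8, 7 of them high-numbered, but the count over all features then went from 67 to 3263 (15.6%) as well. The median change of the high-numbered members in line 5.8 at this stage was 0.90 on the log2 scale and 1.42 without that library. In line 17_10 at stage 49 their median change was 0.67, and -0.16 without its replicate 2. Which sign the high-numbered members showed in line 17_10 at stage 49 was thus set by a single library.

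On the lower side the smallest p-values were far from the threshold. In line 5.8 at stage 49, EPlHVUG00000010031 had 6384, 4901 and 7401 in the control and 3996, 3430 and 4825 in the line, a log2 fold change of -0.60 (SE 0.22, adjusted p = 0.284). EPlHVUG00000000340 in line 17_10 at stage 49 was at -0.97 (adjusted p = 1). At stage 59, EPlHVUG00000000123 in line 5.8 was at -2.10 (adjusted p = 0.172) and EPlHVUG00000000006 in line 17_10 at -1.20 (adjusted p = 0.85), both from low counts, of at most 13.6 in the libraries compared. On the higher side in line 17_10 at stage 59 it was EPlHVUG00000000235, at 2.15 (adjusted p = 0.439), with 0.769, 1.33 and 3.62 in the control and 4.47, 14.4 and 18.7 in the line.

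Between the silenced lines no member was called at either stage by limma, edgeR or DESeq2, with edgeR calling 0.364 and 0.283% of all features at stages 49 and 59 and DESeq2 1.78 and 1.26%. By limma, 0.426% of all features were called at stage 49 and 0.345% at stage 59. At an unadjusted p below 0.05 there were 3 members (1.74%) at stage 49, against 14.7% of all features, and 5 (2.91%) at stage 59, against 10.2%. The smallest p at stage 49 was that of EPlHVUG00000010031, higher in line 17_10 by 0.59 on the log2 scale (adjusted p = 0.291), and on the lower side that of EPlHVUG00000000289, at -0.85 (adjusted p = 0.399). At stage 59 it was EPlHVUG00000000123, at 1.96 (adjusted p = 0.33), and on the lower side EPlHVUG00000010052, at -1.03 (adjusted p = 0.529). Whether the change between stages differed between a line and the control was tested as an interaction. No member and no other feature was called by limma for line 5.8 or for line 17_10 (0% of all features in each). At an unadjusted p below 0.05 there were 10 members (5.81%) for line 5.8, against 11.3% of all features, and 5 (2.91%) for line 17_10, against 2.53%. Neither edgeR nor DESeq2 called a member in an interaction, with 0% of all features called by edgeR and 0.287 and 0.0719% by DESeq2.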

How the data were processed

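RNA of 18 whole-spike libraries was measured. The deposited signal is a table of counts that the authors normalized by size factors, per the labels, and per the submitters' processing notes STAR 2.4.2a, Subread 1.5.2 and DESeq2 were used, with no role or order. Build, annotation, strand setting and treatment of multiply aligned reads: not given in the sources used here. Similar or overlapping features could therefore have lost or shared reads. Dividing by the worth of 1 read in each library gave whole reads (100% of values, tolerance 0.001 reads). No column lacked a sample. Depth and precision follow from these reads, and PCR copies were counted as reads.

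Features with at least 10 in at least 3 libraries (20874) were fitted as log2(value + 1) with limma 3.58.1 in R 4.3.3, with 6 group means, a mean-variance trend and Benjamini-Hochberg adjustment in each of 11 comparisons; the fit was tested on simulated data. Fold changes on this scale understate those of low features. edgeR 4.0.16 and DESeq2 1.42.0 were run on the recovered reads as alternatives. Tables and figures used Python 3.11.15, pandas 2.3.3 and matplotlib 3.10.9.

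The members, lists and tests were chosen with earlier results of these data known. Named members were the 10 of highest mean, and per stage comparison the 3 largest rises and falls among called members with a mean of at least 50 in the higher group. They were also the member of smallest p in each direction per line comparison, the 5 largest and 5 smallest residual SDs at a mean of at least 50, and the 2 features on either side of the threshold. Any other member is named because its values were seen.

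Replicates are separate samples by the labels, and nothing states whether they came from separate plants, so p-values measure the spread between these samples. Libraries of a group differed by a chi-square of at least 35.6 per feature, so none was a copy. Same-numbered libraries deviated together in 1 of the 15 group pairs checked: line 5.8 with the control at stage 49 (r = 0.15, 0.39 and 0.40), a pairing seen in the data and not stated in the labels.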

Additional observations from a re-analysis of the deposited data

Results flagged for a closer look

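Features with the EPlHVUG prefix that missed the threshold were searched for a signal in a silenced line with no more than 3 reads in every control library. In 10 of them a line library reached 10 normalized counts. The reverse search, for a signal in the control alone, and the same search among MLOC features were not made, so this count has no background. The highest was EPlHVUG00000000924, at 31.4 in line 5.8 stage 59 replicate 3, where the highest control library had 1.21. In line 17_10 stage 49 replicate 2 the highest values were those of EPlHVUG00000000044 at 26.2, EPlHVUG00000001420 at 22, EPlHVUG00000010091 at 13.5, EPlHVUG00000001257 at 12.7, EPlHVUG00000000328 at 11.8 and EPlHVUG00000000390 at 11. Those 6 of 10 had their highest value in the library in which the high-numbered members stood apart, but of the 6 only EPlHVUG00000010091 is high-numbered. In line 5.8 stage 49 replicate 2 they were EPlHVUG00000001317 at 14.1 and EPlHVUG00000010085 at 12.4. EPlHVUG00000010110 reached 10.1 in line 17_10 stage 59 replicate 3. The highest control values of the 10 lay between 1.21 and 2.72, and their highest line values rest on 7 to 31 reads, so no test was made.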

How the results depend on the processing

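Of 440 alternative values for the counts of called members, shares and spreads, 415 stayed close to the main value and 25 moved. Such values have no sign, so a reversal was not possible among them. The median changes of the high-numbered members and their split into higher and lower are not among these, and those for stage in line 17_10 and for line 17_10 against control at stage 49 did turn without line 17_10 stage 49 replicate 2, to medians of 0.57 and -0.16. Among the 415 are many counts of 0 that stayed at 0, in the comparisons of lines and in the interactions. Few or no features of any kind were called there in the main fit, so these counts had little room to move. Of 864 alternative values for named members, 808 kept their status as called or not called, 45 lost a call, 11 gained one and none changed sign. They include members that the main fit did not call. The stage count in the control, 15, became 34 with array weights (65.4% of all features called), 32 with the compared groups alone (46.6%) and 28 with the high-numbered members centred on their library median (16 higher, 12 lower; 45.1% of all features), a centring chosen after seeing the data. In line 5.8 the 29 became 45 with array weights (60.4%) and 18 with the compared groups alone (32.3%), and in line 17_10 the 22 became 36 with the centring (25 higher, 11 lower; 45.3% of all features). Leaving out each replicate gave 10 to 19, 20 to 37 and 15 to 28 in the 3 stage comparisons. The share of all features called moved too. In the control it was 37.1 to 42.8% with a control library left out. In line 5.8 it was 50.9% without line 5.8 stage 59 replicate 1. In line 17_10 it was 38.5% without line 17_10 stage 49 replicate 2.

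For line 5.8 against control at stage 49, where no member was called, there was 1 with a pseudocount of 5 (0.474% of all features), 2 with DESeq2 (1.67%) and 8 with array weights (18.6%), and 0 to 2 with each replicate left out (2 without control replicate 1, with 0.359% of all features called, and 1 without control replicate 2, with 3.69%). At stage 59 there were 2 with DESeq2 (2.4%), 22 with array weights (32.4%) and 0 to 9 with a replicate left out (9 without line 5.8 replicate 1, with 15.6%). For line 17_10 at stage 49 there was 1 with array weights (2.13%) and 0 to 1 with a replicate left out (1 without control replicate 1, with 0.177%). Array weights gave 4 and 3 between the lines at stages 49 and 59 (9.38 and 15.1% of all features), and 15 (20%) in the interaction of line 5.8, where leaving out a replicate gave 0 to 1 (1, EPlHVUG00000010012, without line 5.8 stage 59 replicate 1, with 1.19% of all features). The array weights were estimated gene by gene, an estimator chosen after the default one did not converge and its counts had been seen. In the stage comparisons of the control, line 5.8 and line 17_10 the default called 49, 66 and 36 members. Of all 20874 features it called 15100, 14376 and 13272 there. In the other comparisons it called 1 to 51 members and 358 to 9347 of all features. The cause of these movements was not tested.

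The pairing check found paired numbers in 1 comparison, line 5.8 against control at stage 49. With the replicate block its count stayed at 0, but few or no features of any kind were then called. They were 0% of all features with the block within the compared groups and 0.398% with the block in all libraries. The count of 0 therefore does not show that the members were unaffected by the pairing. Elsewhere samples share only a number. The replicate block within the compared groups gave 10 in place of 29 for stage in line 5.8 (25.1% of all features). It moved no other stage count by over 1.5 times, and in the comparisons of lines and the interactions it called no feature at all.

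Without EPlHVUG00000010090 the members' share was 0.196% in the control at stage 49, 0.168% in the control at stage 59 and 0.194% in line 5.8 at stage 49. It was 0.505% in line 5.8 at stage 59, 0.939% in line 17_10 at stage 49 and 0.413% in line 17_10 at stage 59. The mean over groups of the median SD of low-numbered members went from 0.48 to 0.38 with a pseudocount of 5. Low-numbered members with a mean near 10 rest on few reads, which limits what a change in them can show.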
